A study of Mus musculus with 6 samples.

Results

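The transcripts of 35 genes of macrophages, complement and antigen presentation were followed in testes of Nxf2 knockout (KO) and wild-type (WT) mice at postnatal day 21. Nxf2 is an X-linked germ cell relative of the mRNA export receptor gene Nxf1. There were 3 KO and 3 WT testis samples, each on 1 Affymetrix array, and testis weights were reported as similar in both genotypes at this age. How the allele was made, the strain and the number of animals per sample are not given in the sources used here. The p-values below therefore cover only how much these 6 samples vary. The 35 genes were taken as a list by name, and each was read from the probe set with the highest mean signal among those annotated with that gene alone. In this way 33 of the 35 were found, of 18193 genes with such a probe set. No probe set annotated with C3 alone was used here, C4b has 1 that is shared with another gene, and both are named only. Of the 33, Ccl2 was too dim to be tested and 32 were tested, a limit set at a mean signal of 20.5 over all 6 arrays. Values are MAS5 signals, in which each array is scaled to the same trimmed mean. Levels of a gene are compared between arrays for 1 probe set and not between probe sets. Where signals are summed over a list, the brightest probe sets weigh most in the sum.

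Resident macrophages are the main immune cells of the testis. They lie in the interstitium among the Leydig cells and along the outer wall of the seminiferous tubules, depend on the growth factor CSF1 and its receptor CSF1R, take up dead cells and debris, and are a local source of complement C1q. MHC class II molecules load peptides from engulfed protein with the help of the invariant chain (Cd74), and are largely restricted to macrophages, dendritic cells and B cells, whereas MHC class I heavy chains pair with beta-2 microglobulin on nearly all nucleated cells.

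The arrays had similar overall signal, with medians of 37.1 to 40.9, and Spearman correlations over tested probe sets were 0.965 to 0.983 between KO and WT arrays. Nxf2 itself had a signal of 116, 106 and 131 in KO replicates 1 to 3, against 374, 340.4 and 386 in WT replicates 1 to 3 (limma, adjusted p = 0.000488). Every KO array lay below every WT array. Over all 27022 tested probe sets, 2.26% were called higher and 5.23% lower in KO (limma, Benjamini-Hochberg adjusted p under 0.05), and the median log2 fold change was 0.037, on a log2(signal + 7) scale and as KO minus WT.

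Most macrophage and presentation genes had a higher mean in KO testes, and 1 of the 32 passed the test. That gene was Mgl2, a galactose-binding lectin of macrophages, with a KO to WT ratio of 1.99 on the signal + 7 scale. It was bright enough to be tested only through its KO arrays (mean signal 38.0 in KO and 15.3 in WT, against the limit of 20.5), so its call is not used as support for a difference, and with no dim filter its adjusted p was 0.0702. The other 31 members lay at or above the limit in both genotypes, and none of them passed in either direction, 11 being higher and 1 lower at an unadjusted p under 0.05. With array weights, 13 of the 32 members were called higher and 2 lower, and of all 27022 tested probe sets 3771 were called higher and 3446 lower. With a block for the replicate number, 12 of the 32 members were called higher and 2 lower, and of all 27022 tested probe sets 2173 were called higher and 2330 lower. Whether the replicate numbers mark pairs was not settled. Of the 32, 27 had a higher mean in KO and 5 a lower one (56.9% of all tested probe sets had a higher mean), and with quantile normalization or median centring 25 were higher in KO. The members' median log2 fold change was 0.40, with single values from -0.79 to 0.99. Mgl2, which had to be higher in KO to enter the test, is included in these counts. Without it, 26 of the other 31 had a higher mean in KO, and their median log2 fold change was 0.397. In 7 members, or 6 without Mgl2, all 3 KO arrays lay above all 3 WT arrays, a separation seen upward in 19.1% of all tested probe sets. In none did all 3 lie below (14.8%). At an unadjusted p under 0.05, 12 members were higher (15.5% of all tested probe sets) and 1 was lower (13%). In whole tissue, more cells of a type and more RNA per cell cannot be told apart.

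KO replicate 3 stood apart in these genes. It was the highest of the 3 KO arrays in 25 of 32 members (40.8% of all tested probe sets) and the highest of all 6 arrays in 24 (31.1%). The median over the 32 members, set against the WT mean, was 0.084, 0.28 and 0.73 on the log2 scale in KO replicates 1, 2 and 3, against -0.021, -0.16 and 0.15 in WT replicates 1, 2 and 3. The same median over all tested probe sets stayed between -0.0036 and 0.046. Without KO replicate 3 the members' median log2 fold change was 0.20, with 25 of 31 tested members higher (57.5% of all tested probe sets) and none called in either direction (0.474% of all tested probe sets were called higher and 3.3% lower). WT arrays also differed among themselves: WT replicate 3 was the highest WT array in 26 of 32 members (34.7% of all tested probe sets) and WT replicate 2 the lowest in 22 (38.7%). On the log2 scale the SD of the KO arrays exceeded that of the WT arrays in 27 members (52.7% of all tested probe sets).

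**Figure D1:**
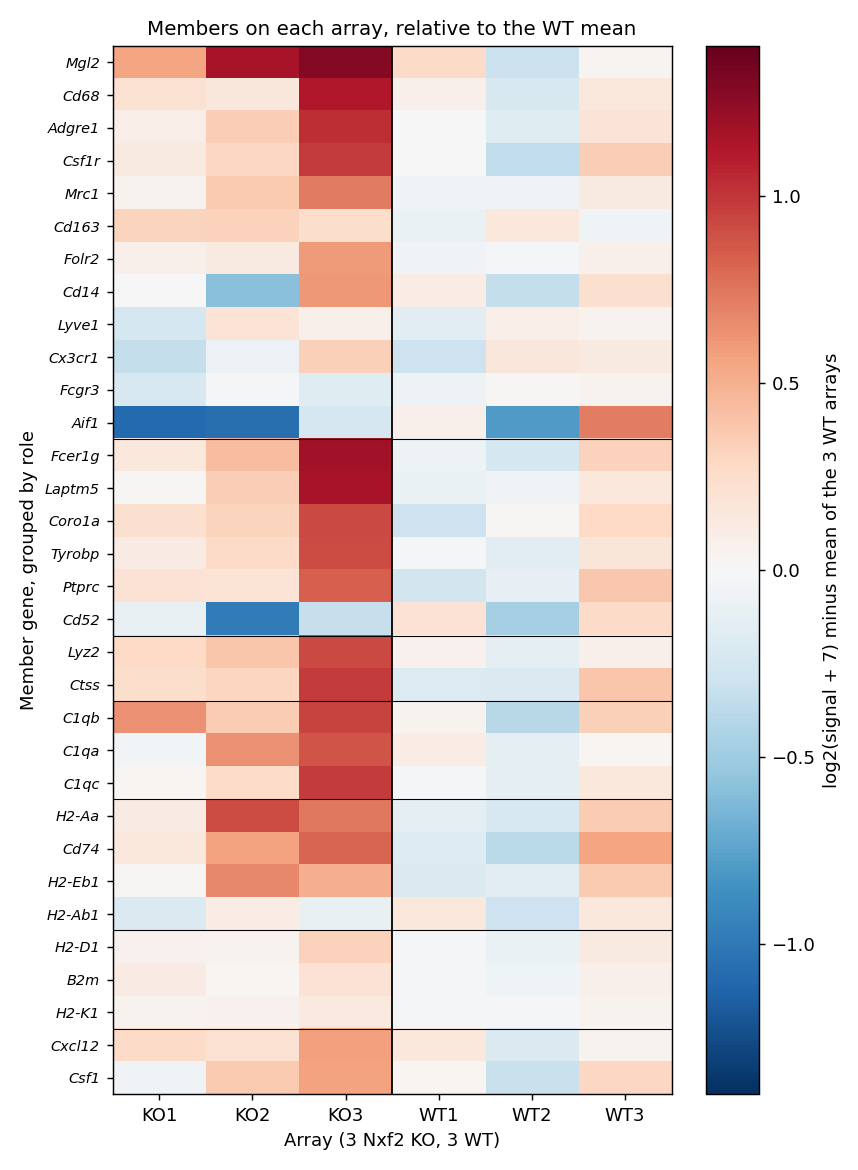
Heat map of the 32 tested members (rows, grouped by role) on each array (columns, KO left and WT right), coloured by log2(signal + 7) minus the mean of the 3 WT arrays. Red is above and blue below that mean. The column of KO replicate 3 is the reddest, with the highest value of all 6 arrays in 24 members, and Aif1 and Cd52 run the other way.

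Mgl2 and Mrc1 are the lectins among the surface receptors. Mgl2 had a signal of 25.3, 42.0 and 46.6 in KO replicates 1 to 3, against 19.6, 10.9 and 15.6 in WT replicates 1 to 3. All 3 KO arrays were above all 3 WT arrays, and the log2 fold change was 0.99 ± 0.22 (SE, limma, adjusted p = 0.0273). All 3 WT signals lay below the dim limit, so this value describes a gene that entered the test through its KO arrays. Neither the call nor the separation of its arrays is used as support for a difference. Its size depends on the pseudocount and lay between 0.49 and 1.24 over the alternatives. The call was kept without KO replicate 1 (adjusted p = 0.0186) and lost without any other array (adjusted p = 0.0723 and 0.0877 without KO replicates 2 and 3, and 0.0691, 0.0678 and 0.0555 without WT replicates 1, 2 and 3), and the log2 fold change stayed between 0.84 and 1.22 in these fits. Mrc1, the mannose receptor (CD206), had a signal of 421, 525 and 680.0 in KO replicates 1 to 3, against 389, 390.4 and 443 in WT replicates 1 to 3. KO replicate 1 lay within the WT range and the other KO arrays above it, and the KO minus WT log2 difference was 0.38 ± 0.14 (adjusted p = 0.118).

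The promoter of Mgl2, the only member called, is shown with that of C1qb, the member of next lowest p, because both carry the hexamer GAGGAA, a core bound by the myeloid ETS factor PU.1. The 250 bases before the annotated start were searched on both strands, in RefSeq sequence of GRCm38.p6, for GAGGAA, for ATTGG (the inverted CCAAT box, found in the Y box of MHC genes) and for GGATTCC (the core of the kappa B site of MHC class I promoters). Capitals mark every match, and no matches overlap in the sequences printed. Mgl2 lies at chr11:70130107-70130356 (+ strand) and C1qb at chr4:136886201-136886450 (- strand).
Mgl2: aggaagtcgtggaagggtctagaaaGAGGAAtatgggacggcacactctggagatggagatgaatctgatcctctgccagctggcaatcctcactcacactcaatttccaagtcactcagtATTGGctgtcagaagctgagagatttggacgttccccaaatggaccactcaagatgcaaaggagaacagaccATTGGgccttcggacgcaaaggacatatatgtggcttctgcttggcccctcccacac
C1qb: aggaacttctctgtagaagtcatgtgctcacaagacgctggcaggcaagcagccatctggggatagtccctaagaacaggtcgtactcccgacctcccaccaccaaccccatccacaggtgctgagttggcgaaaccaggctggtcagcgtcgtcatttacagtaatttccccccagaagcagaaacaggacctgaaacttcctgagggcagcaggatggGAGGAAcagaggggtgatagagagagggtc
GAGGAA begins at position -225 in Mgl2 and at -30 in C1qb, counted back from the start. It was present in 10 of the 24 members searched and in 23.3% of all 32851 promoters. Here and below, a member counts if any of its promoters has a match, and some have several. The share is over single promoters, so the counts are not like for like. Matches are letters in a window and not evidence of binding. Members without an entry in the table were not searched.

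The macrophage markers Csf1r, Adgre1 and Cd68 had higher means in KO, with KO replicate 3 far above the other arrays. Aif1, Fcgr3 and Cx3cr1, also macrophage markers, had lower means and are given below. Csf1r, the receptor that macrophages need for survival, had a signal of 284, 317 and 516 in KO replicates 1 to 3, against 259, 202 and 331 in WT replicates 1 to 3. The groups overlapped, since WT replicate 3 exceeded KO replicates 1 and 2 (log2 fold change 0.46 ± 0.22, adjusted p = 0.192). Adgre1, the F4/80 antigen used to stain tissue macrophages, had 55.2, 67.1 and 112 in KO replicates 1 to 3, against 50.9, 44.6 and 59.2 in WT replicates 1 to 3. Cd68, a lysosomal glycoprotein of phagocytes, had 69.0, 66.7 and 136 in KO replicates 1 to 3, against 62.3, 49.5 and 65.8 in WT replicates 1 to 3. In both, KO replicates 1 and 2 lay within or just above the WT range and KO replicate 3 far above it, so that the log2 fold changes of 0.49 and 0.50 were 0.22 and 0.19 without KO replicate 3 (adjusted p = 0.173 and 0.196 with it).

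Receptors of resident macrophages showed smaller differences. Folr2, a folate receptor of resident macrophages, had a signal of 81.2, 84.2 and 119 in KO replicates 1 to 3, against 74.1, 75.3 and 81.0 in WT replicates 1 to 3. Cd163, the haemoglobin scavenger receptor, had 28.1, 28.5 and 26.4 in KO replicates 1 to 3, against 19.5, 24.4 and 20.1 in WT replicates 1 to 3. In both, all KO arrays lay above all WT arrays, Folr2 by less than 1 signal unit between its nearest arrays, and in Cd163 KO replicate 3 was the lowest KO array. Their log2 fold changes were 0.26 (adjusted p = 0.270) and 0.29 (adjusted p = 0.198). Lyve1, a hyaluronan receptor of some resident macrophages and of lymphatic endothelium, had 18.7, 27.8 and 24.9 in KO replicates 1 to 3, against 20.6, 25.5 and 24.6 in WT replicates 1 to 3, close to the dim limit. Cx3cr1, the fractalkine receptor, had 16.8, 21.2 and 30.7 in KO replicates 1 to 3, against 17.5, 26.4 and 25.8 in WT replicates 1 to 3. Cd14, the lipopolysaccharide co-receptor, had 21.0, 11.8 and 36.0 in KO replicates 1 to 3, against 23.3, 15.4 and 25.9 in WT replicates 1 to 3. In these 3 genes the genotypes overlapped, and signals this low do not show that levels were equal.

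Aif1 and Fcgr3 had lower means in KO, as did Cx3cr1 (-0.029 on the log2 scale), and the other 9 tested genes of macrophage identity and surface receptors had higher ones. Aif1 (IBA1), an actin-bundling protein used to stain macrophages and microglia, had a signal of 20.3, 20.9 and 42.2 in KO replicates 1 to 3, against 53.9, 26.5 and 88.5 in WT replicates 1 to 3. The genotypes overlapped because WT replicate 2 was below KO replicate 3, and the log2 fold change was -0.79 ± 0.35 (adjusted p = 0.169). The WT values spread over a range wider than the genotype difference, and Aif1 has 1 probe set, so no second reading was had. Without WT replicate 2 it was called lower (log2 fold change -1.19, adjusted p = 0.0444). Fcgr3, a low-affinity receptor for IgG, had 303, 348 and 315 in KO replicates 1 to 3, against 337, 360.1 and 368 in WT replicates 1 to 3, a log2 difference of -0.14 ± 0.078 (adjusted p = 0.264). Its KO and WT arrays overlapped, and its spread was small next to that of the other receptors.

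**Figure D2:**
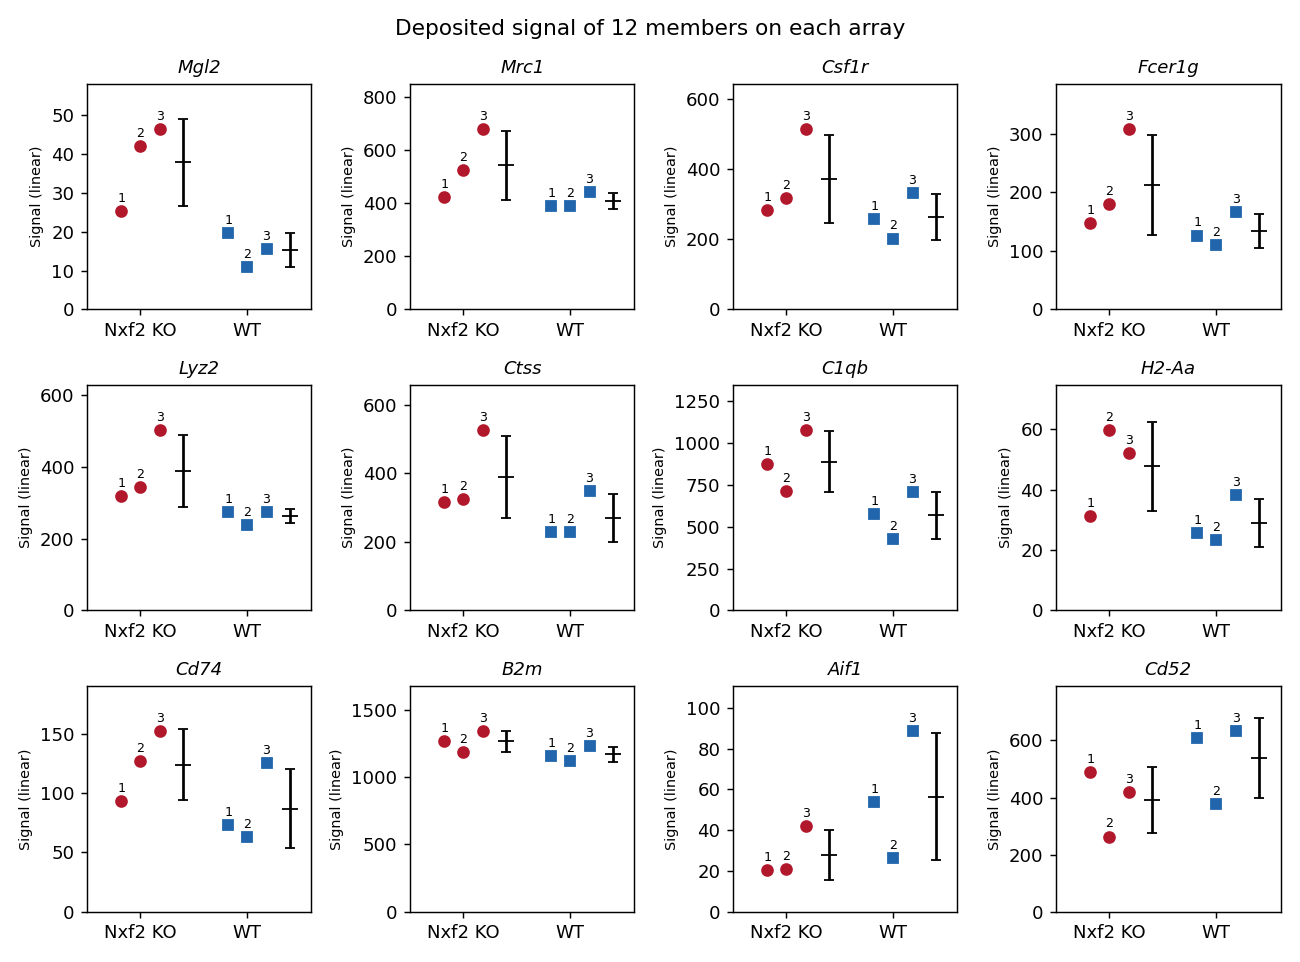
Deposited signal (linear, MAS5) of 12 members on each array, with KO as circles and WT as squares, the replicate number above each point, and the mean and SD of each group in black. KO replicate 3 is the highest array in Mrc1, Csf1r, Fcer1g, Lyz2, Ctss, C1qb, Cd74, B2m and Mgl2, while WT replicate 3 is the highest in Aif1 and Cd52.

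Signalling adaptors and pan-leukocyte genes had higher means in KO, as Csf1r, Adgre1 and Cd68 did, except Cd52. Fcer1g, the common gamma chain that couples Fc receptors to the kinase SYK, had a signal of 147, 180.2 and 308 in KO replicates 1 to 3, against 126, 110.1 and 167 in WT replicates 1 to 3. KO replicate 1 lay below WT replicate 3, and the log2 fold change was 0.58 ± 0.24 (adjusted p = 0.143). Tyrobp (DAP12), the adaptor of TREM receptors, had 112, 126 and 201 in KO replicates 1 to 3, against 103, 92.0 and 117 in WT replicates 1 to 3, again with KO replicate 1 inside the WT range. Laptm5, a lysosomal membrane protein of blood cells, had 195, 246 and 438 in KO replicates 1 to 3, against 180.1, 185 and 214 in WT replicates 1 to 3. KO replicate 3 was the only KO array far from WT in both genes, whose log2 fold changes were 0.43 (adjusted p = 0.169) and 0.51 (adjusted p = 0.180).

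Coro1a, an actin regulator of leukocytes, had 84.8, 91.0 and 142 in KO replicates 1 to 3, against 57.5, 72.4 and 88.5 in WT replicates 1 to 3, and Ptprc, the leukocyte phosphatase CD45, had 26.3, 26.2 and 44.8 in KO replicates 1 to 3, against 17.2, 19.7 and 30.6 in WT replicates 1 to 3. In each, WT replicate 3 reached into the KO range, and the log2 fold changes were 0.48 (adjusted p = 0.149) and 0.41 (adjusted p = 0.249). Cd52 encodes a small lipid-anchored glycoprotein of lymphocytes and macrophages that epididymal epithelium also makes and sperm carry. It had 488, 263 and 419 in KO replicates 1 to 3, against 608, 378 and 633 in WT replicates 1 to 3, a log2 difference of -0.47 ± 0.23 (adjusted p = 0.207). KO replicate 2 was the lowest array and WT replicate 2 the lowest of WT, below KO replicates 1 and 3. Of 6 tested epididymal markers, a list added after values of Cd52 were seen, 3 fell (Adam7, Aqp9 and Rnase10) and Defb15 rose (log2 fold changes -0.86, -0.32, -0.44 and 1.22; adjusted p = 0.0423, 0.0448, 0.0467 and 0.0180). Over all tested probe sets 5.23% were called lower and 2.26% higher. Adam7 and Defb15 entered the test only through the genotype where they were high. All 4 lost the call without KO replicate 3, and the 3 that fell also without KO replicate 2, WT replicate 1 or WT replicate 3. The summed signal of all 9 measured epididymal markers was 1169, 854.0 and 975.6 in KO replicates 1 to 3, against 1562, 1232 and 1529 in WT replicates 1 to 3. KO replicate 2 and WT replicate 2 were the lowest of their genotypes in the sum and in Cd52. Spink8 is a bright gene of this sum, so its order of arrays is not a separate reading. It had 366, 161 and 312 in KO replicates 1 to 3, against 657, 362 and 631 in WT replicates 1 to 3. Aqp9, also bright, was lowest in KO replicate 3 (584, 532 and 457 in KO replicates 1 to 3). The median of the 6 tested markers, set against the WT mean, was -0.26, -0.45 and -0.49 in KO replicates 1 to 3, against 0.029, -0.12 and -0.036 in WT replicates 1 to 3, so by the median KO replicate 3 was the lowest KO array. The part of epididymal tissue in the Cd52 signal was not tested.

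Both lysosomal enzymes had higher means in KO. Lyz2, lysozyme of macrophages and neutrophils, had a signal of 319, 344 and 503 in KO replicates 1 to 3, against 274, 239 and 275 in WT replicates 1 to 3. All KO arrays lay above all WT arrays, and the log2 fold change of 0.53 ± 0.15 did not pass (adjusted p = 0.0581). Without KO replicate 3 it was 0.33 (adjusted p = 0.0801), and without KO replicate 1 it was 0.65 and was called (adjusted p = 0.0400). Ctss, the cathepsin that trims the invariant chain in antigen-presenting cells, had 315, 326 and 527 in KO replicates 1 to 3, against 230.1, 229.6 and 349.6 in WT replicates 1 to 3. WT replicate 3 exceeded KO replicates 1 and 2, and the log2 fold change was 0.51 ± 0.20 (adjusted p = 0.141).

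The 3 chains of C1q, which bind antibody and apoptotic cells and start the classical complement pathway, all had higher means. C1qb had a signal of 872, 713 and 1077 in KO replicates 1 to 3, against 577, 425 and 705 in WT replicates 1 to 3. The genotypes did not overlap, although KO replicate 2 lay close to WT replicate 3, and the log2 fold change was 0.64 ± 0.18, just outside the threshold (adjusted p = 0.0544). It was called without KO replicate 2 (0.79, adjusted p = 0.0438), without WT replicate 3 (0.81, adjusted p = 0.0352) and with a stricter dim filter at the 60th percentile (adjusted p = 0.0476). The other C1qb probe sets, of lower signal, gave log2 differences of 0.57 and 0.50 (adjusted p = 0.128 and 0.243). In both the genotypes overlapped, with KO replicate 2 below WT replicate 3 (333 against 375, and 84.2 against 91.1). The C1qb probe set used is of a type whose probes can match other transcripts.

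C1qa had 40.2, 68.6 and 82.3 in KO replicates 1 to 3, against 45.1, 37.2 and 42.6 in WT replicates 1 to 3, and KO replicate 1 lay inside the WT range (log2 fold change 0.49 ± 0.21, adjusted p = 0.163). C1qc had 101, 121 and 203 in KO replicates 1 to 3, against 98.2, 90.4 and 112 in WT replicates 1 to 3, with KO replicate 1 again inside the WT range (log2 fold change 0.42 ± 0.21, adjusted p = 0.221). The 3 chains form 1 protein and their genes lie together on chromosome 4. KO replicate 1 was close to WT in C1qa and C1qc and above every WT array in the C1qb probe set used. In the dimmest C1qb probe set KO replicate 1 lay inside the WT range (74.7, against 91.1 in WT replicate 3). Without KO replicate 3 the log2 fold changes were 0.30, 0.49 and 0.14 for C1qa, C1qb and C1qc.

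Of the class II genes, 3 had higher means and H2-Ab1 did not. H2-Aa, the alpha chain of the I-A molecule, had a signal of 31.4, 59.8 and 52.1 in KO replicates 1 to 3, against 25.5, 23.3 and 38.2 in WT replicates 1 to 3. KO replicate 2, not 3, was the highest array, and KO replicate 1 fell inside the WT range (log2 fold change 0.59 ± 0.23, adjusted p = 0.127). H2-Eb1, the beta chain of I-E, had 20.8, 37.0 and 32.3 in KO replicates 1 to 3, against 16.9, 17.7 and 28.6 in WT replicates 1 to 3, with the same order of KO arrays (log2 fold change 0.40, adjusted p = 0.250). Cd74, the invariant chain, had 93.1, 127 and 153 in KO replicates 1 to 3, against 73.0, 62.8 and 125 in WT replicates 1 to 3, and WT replicate 3 lay between KO replicates 1 and 2 (log2 fold change 0.51 ± 0.24, adjusted p = 0.187). H2-Ab1, the beta chain that pairs with H2-Aa, had 79.2, 98.9 and 84.8 in KO replicates 1 to 3, against 102, 73.9 and 102 in WT replicates 1 to 3, a log2 difference of -0.069 ± 0.15 (adjusted p = 0.789). Its other tested probe sets gave log2 differences of 0.063 and -0.020. The difference between the chains of I-A was not tested.

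MHC class I genes had the lowest median log2 fold change of the role groups, 0.11. B2m, the light chain, had a signal of 1268, 1186 and 1340.4 in KO replicates 1 to 3, against 1152, 1122 and 1230.4 in WT replicates 1 to 3, a log2 difference of 0.11 ± 0.055 (adjusted p = 0.209). H2-K1, a classical heavy chain, had 770.0, 778 and 817 in KO replicates 1 to 3, against 733, 729.6 and 772 in WT replicates 1 to 3, and H2-D1, the other, had 334, 330.2 and 402 in KO replicates 1 to 3, against 314, 299 and 349 in WT replicates 1 to 3. WT replicate 3 overlapped the KO arrays in all 3 genes, and the log2 fold changes of the heavy chains were 0.081 ± 0.052 and 0.14 ± 0.10 (adjusted p = 0.328 and 0.348). Class I heavy chains are near-identical in sequence, and the probe sets of H2-K1 and H2-D1 used here are of a type whose probes can match other transcripts, so the signal of one cannot be assigned to it alone. The probe sets used for C1qb, Laptm5 and H2-Aa are of the same type. Further tested probe sets of H2-K1 had log2 fold changes of 0.18 and 0.28, and those of H2-D1 had 0.18, 0.36 and 0.30, with none called.

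The MHC promoters are shown because the letters searched include sites known from the control of these genes. H2-K1 lies at chr17:34000348-34000597 (- strand), H2-D1 at chr17:35262844-35263093 (+ strand), H2-Aa at chr17:34287824-34288073 (- strand) and H2-Eb1 at chr17:34305617-34305866 (+ strand), and the capitals mark the same letters as above.
H2-K1: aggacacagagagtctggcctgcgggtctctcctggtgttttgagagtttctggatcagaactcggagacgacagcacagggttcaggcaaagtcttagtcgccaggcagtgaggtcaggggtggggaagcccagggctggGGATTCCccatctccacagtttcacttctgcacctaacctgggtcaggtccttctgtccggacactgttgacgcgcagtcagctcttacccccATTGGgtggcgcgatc
H2-D1: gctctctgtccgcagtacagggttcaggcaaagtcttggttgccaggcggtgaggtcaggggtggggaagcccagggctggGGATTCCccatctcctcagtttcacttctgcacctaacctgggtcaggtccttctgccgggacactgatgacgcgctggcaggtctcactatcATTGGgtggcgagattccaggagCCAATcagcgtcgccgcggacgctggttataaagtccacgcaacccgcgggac
H2-Aa: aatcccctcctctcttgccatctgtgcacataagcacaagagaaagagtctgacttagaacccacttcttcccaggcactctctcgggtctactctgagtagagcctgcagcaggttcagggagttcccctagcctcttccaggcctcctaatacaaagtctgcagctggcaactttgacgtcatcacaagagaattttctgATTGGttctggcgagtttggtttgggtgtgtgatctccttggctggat
H2-Eb1: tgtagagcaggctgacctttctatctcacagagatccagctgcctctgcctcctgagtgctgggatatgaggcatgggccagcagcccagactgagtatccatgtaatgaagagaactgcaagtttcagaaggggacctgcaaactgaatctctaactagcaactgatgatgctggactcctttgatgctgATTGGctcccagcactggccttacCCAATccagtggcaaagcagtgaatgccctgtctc
GGATTCC was present in H2-K1 and H2-D1, at positions -109 and -169, in no other of the 24 members and in 3.17% of all 32851 promoters. ATTGG or its reverse complement was present in all 4 of these promoters, in 11 of 24 members and in 33.8% of all promoters. In H2-Aa it begins at position -48, and in H2-Eb1 at -59 and, on the other strand, at -35. No measurement of factor binding was made in these samples.

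The ligands were measured as well. Cxcl12, a stromal chemokine that holds CXCR4-bearing cells in place, had a signal of 303, 292 and 375 in KO replicates 1 to 3, against 279, 216 and 260.4 in WT replicates 1 to 3. All KO arrays were above all WT arrays, with a log2 fold change of 0.35 ± 0.12 that did not pass (adjusted p = 0.0949). Csf1, the ligand of Csf1r, had 62.7, 86.0 and 99.3 in KO replicates 1 to 3, against 66.4, 50.8 and 80.9 in WT replicates 1 to 3, with overlapping groups (log2 fold change 0.30 ± 0.19, adjusted p = 0.334). Ccl2, which recruits monocytes, had signals of 10.6 to 14.8 in KO and 7.1 to 12.1 in WT, all under the dim limit, and was not tested.

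**Figure D3:**
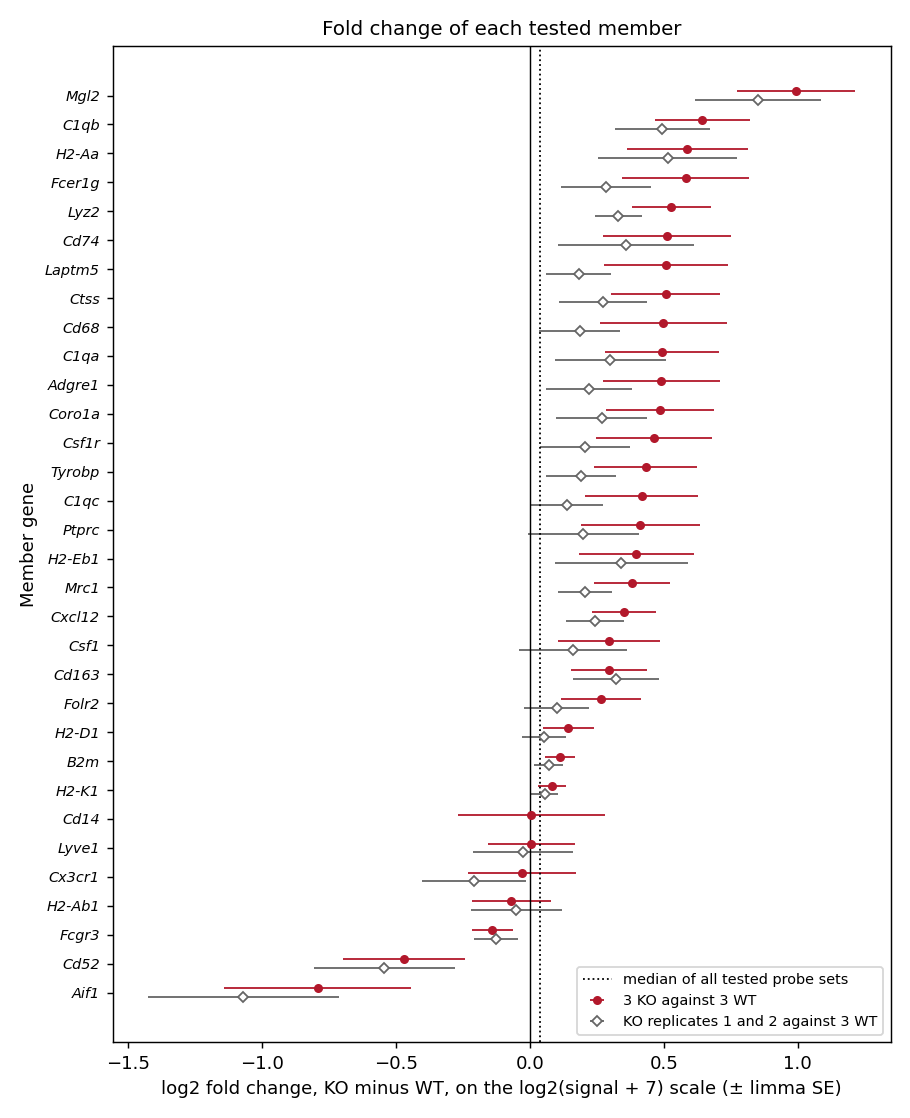
Log2 fold change (KO minus WT, log2(signal + 7) scale) of the 32 tested members with limma's standard error, from all 6 arrays (filled circles) and without KO replicate 3 (open diamonds, 31 members, Cd14 being too dim). The dotted line is the median of all tested probe sets, 0.037. The members' median is 0.40 with and 0.20 without KO replicate 3.

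Probe sets of one gene mostly gave the same direction. Of the 33 measured members, 19 have 1 probe set and 14 have several. Among the 14, 20 further probe sets of 11 genes were bright enough to be tested. Of these 20, 19 had the sign of the probe set used and 1, of H2-Ab1, the opposite sign, and none was called (lowest adjusted p = 0.0582, Coro1a).

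Other genes of the same pathways were read from lists that do not repeat the members. Of 22 tested macrophage and phagocyte genes, Maf and Lgmn rose, none fell and 20 did not pass. Over all tested probe sets 2.26% were called higher and 5.23% lower. All 22 had higher means, under quantile normalization and median centring too, beside 56.9% of all tested probe sets in the reported fit. Among them, Fcgr1 and Itgb2 had WT means under the dim limit (17.0 and 19.2, against 28.8 and 27.2 in KO). They entered the test only through their KO arrays, so their direction is not used as support. The list's median log2 fold change, with both included, was 0.43. Maf, a transcription factor of resident macrophages, had 442, 460.3 and 592 in KO replicates 1 to 3, against 392, 312 and 349 in WT replicates 1 to 3 (log2 fold change 0.49, adjusted p = 0.0350), and Lgmn, a lysosomal endopeptidase that is also in the presentation list, had 465, 481 and 564 in KO replicates 1 to 3, against 424, 378 and 376 in WT replicates 1 to 3 (0.35, adjusted p = 0.0389). Both genes have all KO arrays above all WT arrays. Without KO replicate 3 the list's median was 0.28, 18 of 21 tested genes had higher means (57.5% of all tested probe sets) and none was called.

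Among 15 tested complement genes and regulators beyond the members, 1 rose (2.26% of all tested probe sets) and none fell (5.23%). The median log2 fold change was 0.34, with C3ar1 included, which entered the test only through its KO arrays (mean signal 29.5 in KO and 18.4 in WT). That gene was Masp1, a protease of the lectin pathway, with 92.7, 71.6 and 132 in KO replicates 1 to 3, against 45.8, 40.2 and 65.8 in WT replicates 1 to 3 (0.86, adjusted p = 0.0432). For C1s1, the C1 protease, the log2 difference was 0.34 (adjusted p = 0.0632). Among 25 tested genes of antigen processing, 3 rose, none fell and 22 did not pass, with a median of 0.21, beside the same shares over all tested probe sets. Psmb8 and Cd83, neither of them called, entered the test only through their KO arrays (mean signal 25.4 and 31.5 in KO, 16.5 and 18.5 in WT). After quantile normalization 2 rose and 1 fell, and after median centring 1 rose and 1 fell. Psme1, a subunit of the interferon-inducible proteasome activator, had 642, 638 and 759.7 in KO replicates 1 to 3, against 551, 518 and 566 in WT replicates 1 to 3 (0.31, adjusted p = 0.0378). Psmb10, an immunoproteasome subunit, had 248, 256 and 381 in KO replicates 1 to 3, against 196, 169 and 209.9 in WT replicates 1 to 3 (0.58, adjusted p = 0.0483), and the third was Lgmn. Each of Maf, Lgmn, Masp1, Psme1 and Psmb10 lost its call without KO replicate 3, WT replicate 1 or WT replicate 2, and each but Masp1 also without KO replicate 2 or WT replicate 3; Masp1 also lost it without KO replicate 1 (adjusted p up to 0.146).

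None of 9 tested chemokine and cytokine genes and none of 15 tested interferon-stimulated genes passed (limma). At an unadjusted p under 0.05, 5 and 2 were higher in KO (15.5% of all tested probe sets) and none was lower (13%). The median log2 fold changes of these lists were 0.25 and 0.12. Ccr2, among the 5, entered the test only through its KO arrays (mean signal 30.3 in KO and 14.9 in WT). It is not used as support for a difference. Ccl9, not among the 5, entered only through its WT arrays (18.2 in KO and 22.9 in WT). For Mif, a macrophage cytokine, the log2 difference was 0.25 (adjusted p = 0.0683), and for Cxcr4, the receptor of CXCL12, it was 0.52 (adjusted p = 0.0906). Irf1 and Ddx58, both induced by interferon, had 0.42 and 0.39 (adjusted p = 0.0625 and 0.0888). Of the chemokine and cytokine genes 21 of 30 were below the dim limit.

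Markers of other blood cells were mostly dim. Of 28 measured lymphocyte, neutrophil and mast cell markers 25 lay below the limit, among them Cd3g, Cd3d, Cd4, Cd79a, Ms4a1, S100a8, S100a9 and Cpa3. The summed signal of the 28 was 413.3 to 446.3 in KO and 397.3 to 438.9 in WT. Cd3e, of the T cell receptor complex, fell, with 30.1, 30.9 and 31.3 in KO replicates 1 to 3, against 69.0, 59.4 and 62.1 in WT replicates 1 to 3 (-0.90, adjusted p = 0.00613), while Cd3g and Cd3d were below the limit on every array. Without WT replicate 1 its adjusted p was 0.0514. For Kit, also a gene of spermatogonia and Leydig cells, the log2 difference was 0.23 (adjusted p = 0.121). The red cell genes Hba-a2 and Alas2 differed by -0.075 and 0.46 (adjusted p = 0.485 and 0.519). Hbb-b2 had 896, 413 and 796 in KO replicates 1 to 3, against 621, 286 and 821 in WT replicates 1 to 3, and Alas2 had 77.2, 39.5 and 93.0 in KO replicates 1 to 3, against 57.8, 17.6 and 88.0 in WT replicates 1 to 3. WT replicate 2, the lowest array by the members' median, was the lowest in both genes, and KO replicate 3 was the highest array in Alas2 but not in Hbb-b2. Hba-a2 had 846, 888 and 851 in KO replicates 1 to 3, against 932, 982 and 818 in WT replicates 1 to 3, with WT replicate 2 the highest array.

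Other interstitial cell types moved along with KO replicate 3. The median of 9 tested Leydig cell markers relative to the WT mean was 0.19, 0.23 and 0.51 in KO replicates 1 to 3, against 0.033, -0.10 and 0.067 in WT replicates 1 to 3. That of 14 tested endothelial markers was 0.080, 0.19 and 0.46, against 0.068, -0.050 and -0.014 in the same order. In both lists KO replicate 3 was the highest array, as in the members. The endothelial list includes Pecam1, which entered the test only through its KO arrays (mean signal 24.3 in KO and 20.0 in WT). Summed over the 11 measured Leydig markers the signal was 4136 to 5809 in KO and 3523 to 3907 in WT, and over the 18 endothelial markers 1413 to 1707 in KO and 1150 to 1348 in WT. Star and Scarb1 among the Leydig and Tek and Robo4 among the endothelial markers rose (log2 fold changes 1.01, 0.32, 0.48 and 0.61; adjusted p = 0.0271, 0.0301, 0.0398 and 0.0430). They were 2 of 9 and 2 of 14 tested genes, beside 2.26% of all tested probe sets called higher. All 4 lost the call without KO replicate 3 or WT replicate 1. Tek lost it without any one array, Robo4 without any but KO replicate 2, and Scarb1 without any but WT replicate 2. The part of other interstitial cells in the members' values was not tested.

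Round spermatid markers moved the other way. Of 17 such markers 16 fell (5.23% of all tested probe sets) and none rose (2.26%), with a median log2 fold change of -0.94. The 1 that did not pass was Ldhc. The 16 were Acrv1, Actl7b, Tekt2, Zpbp2, Spaca1, Acr, Zpbp, Tssk1, Tssk2, Catsper3, Spata16, Capza3, Akap4, Hils1, Smcp and Tsga8. Relative to the WT mean the spermatid median was -1.10, -1.14 and -0.80 in KO replicates 1 to 3, against 0.11, -0.37 and 0.32 in WT replicates 1 to 3. Within WT, replicate 2 was lowest and replicate 3 highest in the spermatid median as in the members'. Within KO, replicate 3 was highest by the median and in 11 of the 17 genes, but the summed spermatid signal was 6121, 5819 and 5628 in KO replicates 1 to 3, lowest in replicate 3, against 7933, 7445 and 8351 in WT replicates 1 to 3. Of the 16 called, Tssk2, Catsper3, Capza3, Akap4 and Hils1 had a KO mean under the dim limit and entered the test through their WT arrays. The number that fell was 2 without WT replicate 1, 9 without WT replicate 3 and 12 to 14 without any other array. The part of the germ cell share of the RNA in the members' values was not tested.

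**Figure D4:**
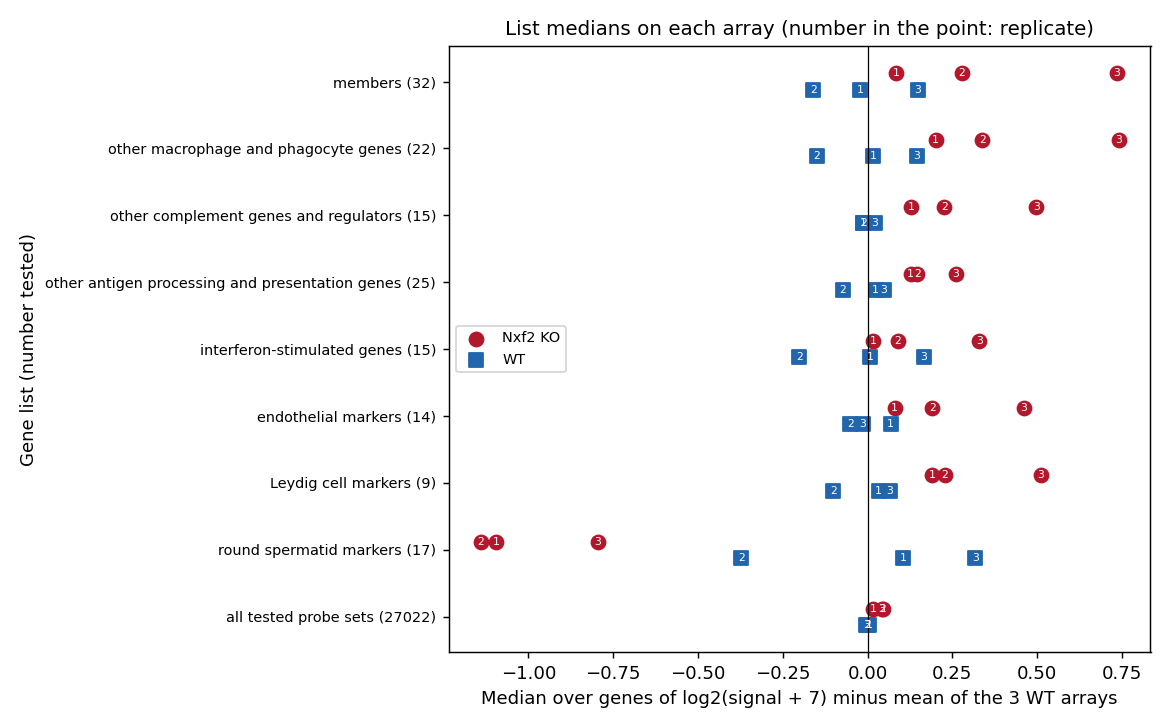
Median over the tested genes of each list of log2(signal + 7) minus the mean of the 3 WT arrays, for each array (KO circles, WT squares, replicate number inside). KO replicate 3 is the rightmost array in the members (0.73), the macrophage, complement, presentation, interferon, endothelial and Leydig lists, and the spermatid markers lie to the left in KO.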

How the data were processed

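Total RNA of whole testes was copied into biotinylated cRNA and hybridised to 1-colour Affymetrix arrays, per the labels' protocols. The deposited table holds 1 linear signal intensity per probe set and array. The submitters' processing notes name MAS5 and give no version. Leaving out the lowest and highest 2%, every array has a mean deposited intensity of 150.0. Detection calls were not used here and no probe set has a background limit. Precision is limited by having 3 arrays per group.

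Of 45101 probe sets 64 controls were left out. Of the other 45037, the platform annotation gives 34945 a single symbol, 932 several and 9160 none used here, and 34741 of the 34945 (99.4%) were updated through RefSeq identifiers of GRCm38.p6. Signals were taken as log2(signal + 7), 7 being the rounded 25th percentile of all deposited values, which understates the fold change of dim probe sets. The 27022 probe sets at or above the 40th percentile of mean signal entered lmFit and eBayes with trend (limma 3.58.1, R 4.3.3; two-sided, no covariate). Calls have an adjusted p (Benjamini-Hochberg) under 0.05. On simulated arrays of this comparison, with 27022 probe sets, log2 changes of 0.5, 1 and 2 were recovered in 39% of 59, 83.8% of 74 and 98.5% of 67 probe sets.

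The members and lists were chosen with earlier results of these data known. All members are named. From each other list the called genes are named and, where fewer than 2 were called, those of lowest p. Promoter sequences are RefSeq's, and those of 24 members were searched, members on chromosome 18 being left out.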

Additional observations from a re-analysis of the deposited data

How the results depend on the processing

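Alternatives changed the scaling (median centring, quantile normalization), the pseudocount (1, 39), the dim filter (none, 60th percentile), the fit (array weights, no trend, replicate block), the probe sets (averaged per gene) and the arrays (each left out). The number of members called higher, 1 as reported, was 0 without the dim filter, 0 without the trend, 13 with array weights (2 lower) and 12 with the replicate block (2 lower, Aif1 and Cd52). It was 0 to 5 when single arrays were left out, with 0 to 1 called lower. The members' median log2 fold change ranged from 0.20 to 0.57 over the arrays left out. It was 0.32 at its lowest over the other alternatives, which moved the median of all tested probe sets by less than 0.1. With the filter at the 60th percentile 16 of 19 tested members had a higher mean, and the 1 called was C1qb, since Mgl2 was too dim to be tested. Over all tested probe sets, leaving out WT replicate 1 left 17 calls higher and 147 lower, against 610 and 1414 with all arrays, and array weights gave 3771 and 3446. The sign of 28 members was the same under each alternative in which they were tested, and that of Cd14, Cx3cr1, H2-Ab1 and Lyve1 was not. The series description speaks of 3 pairs of WT and KO testes but ties no replicate number to a pair, a litter or a day. Same-numbered arrays deviated together with correlations of 0.079, 0.46 and 0.27. Each was the highest correlation of that KO array with any WT array. Differently numbered arrays gave -0.33 to 0.11. Whether the numbers mark pairs was not settled, and the fit reported here has no block. The 1 member called higher is thus a count without pairing. WT replicate 1 correlated better with KO replicate 3 (0.11) than with KO replicate 1. With the block 2173 probe sets were called higher and 2330 lower. Signals near the dim limit and the spread of 3 arrays per group limit what could be called.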
